A study of Sus scrofa with 6 samples.

Results

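The circadian clock genes described here are PER1, PER2, PER3, CRY1, CRY2, CLOCK, NR1D1, NR1D2, DBP and BHLHE40, 10 symbols chosen for their place in the molecular clock. Through the reference table of symbols, 9 of the 10 matched 1 row each among 35670 pig Ensembl gene identifiers, and PER3 matched none and was not analysed here. Their RNA was read from stranded mRNA libraries of cultured granulosa cells, the somatic cells that nurse the oocyte, taken by aspiration from pig (Sus scrofa) follicles of 3 to 6 mm and grown in DMEM with fetal bovine serum. Cells of 3 control libraries stayed at 37 °C and cells of 3 heat libraries spent 6 h at 42 °C, with CO2 supplied to both. The samples are called biological replicates, but no label says whether each came from an animal or culture of its own, so p-values reflect only how far these libraries spread. The labels give no time of day for the harvest and no step that would synchronise the cells, and each library is a single time point of a bulk culture.

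The mammalian clock is a transcriptional feedback loop. CLOCK and its partner BMAL1 bind E-box elements and drive the PER and CRY genes, whose proteins then inhibit that pair, while the nuclear receptors NR1D1 and NR1D2 (REV-ERB alpha and beta) repress BMAL1 and the ROR receptors activate it. Granulosa cells carry this clock, and in the ovary it is known for its links to ovulation and steroid production. Temperature is a known input to clocks of cultured cells, through the heat shock factor HSF1, and the question for these genes is which of them differ after 6 h of heat.

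Libraries within a group differed in how alike they were. Control 2 and control 3 (Pearson r = 0.990 across genes, log2 CPM) and heat 1 and heat 2 (r = 0.991) were near-identical pairs, and control 1 was closest to heat 3 (r = 0.920), where genes are not independent replicates and r only describes likeness. CPM is a read count scaled to the size of its library with TMM factors, and library totals lay between 18711440 and 29606378 reads. Of the markers that define granulosa cells, FSHR reached at most 2.14 CPM, INHA at most 0.306 CPM and AMH at most 0.279 CPM, whereas INHBA lay between 154 and 387 CPM and CYP11A1 between 29.0 and 69.6 CPM. The summed level of 6 stromal markers (COL1A1, COL1A2, COL3A1, DCN, LUM and PDGFRA) was 59101 CPM in control 1, 7419 and 6696 CPM in control 2 and 3, 87899 and 79363 CPM in heat 1 and 2, and 28071 CPM in heat 3. The summed level of 6 leukocyte markers was 31.2 and 63.6 CPM in control 2 and 3. It was 3.34 CPM in control 1 and between 1.31 and 4.34 CPM in heat. LYZ, the lysozyme gene among them, tested lower in heat (edgeR adjusted p = 0.0447), but its groups overlapped. Only control 2 and 3 were high for LYZ, with 26.3 and 54.1 CPM. Control 1, with 0.467 CPM, lay within the LYZ range of the heat libraries, 0.186 to 0.848 CPM. LYZ thus made up most of the leukocyte sum in control 2 and 3. PTPRC, CSF1R and AIF1 were also highest in those libraries, but CD14 and CD68 did not share the pattern. CD14 peaked in heat 1 and heat 2 (2.24 and 1.95 CPM), with no control above 1.80 CPM. CD68 was lower in control 2 (0.655 CPM) than in control 1 (0.935 CPM). The part of these markers in the values that follow was not tested. In bulk RNA, a different mix of cells and a different RNA level per cell cannot be told apart.

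Of the 9 clock genes measured, all 9 passed the filter on low counts, and 1 rose in heat, none fell and 8 did not pass the test (edgeR's quasi-likelihood F test, Benjamini-Hochberg adjusted p below 0.05 over all 14242 tested genes). PER1 was the gene that rose. Among all tested genes 11% were called, 6.71% as higher and 4.32% as lower, so 1 call among 9 genes is near the background. An unadjusted p under 0.05 was found for 3 of the 9 (PER1, CRY2 and NR1D1), against 33.9% of all tested genes. Heat lay above every control for 2 of the 9 (PER1 and CRY2), against 20.9% of all tested genes, and below every control for 0 of the 9, against 16.8%. Log2 fold changes, taken as heat minus control, were positive for 6 and negative for 3 clock genes, with a median of 0.66, and they were positive for 7416 and negative for 6826 of all tested genes, with a median of 0.05. Calls over all genes were 956 higher and 615 lower, a split that became 1583 and 416 when libraries were scaled by their totals only, which moved the median of all genes to 0.17.

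**Figure D1:**
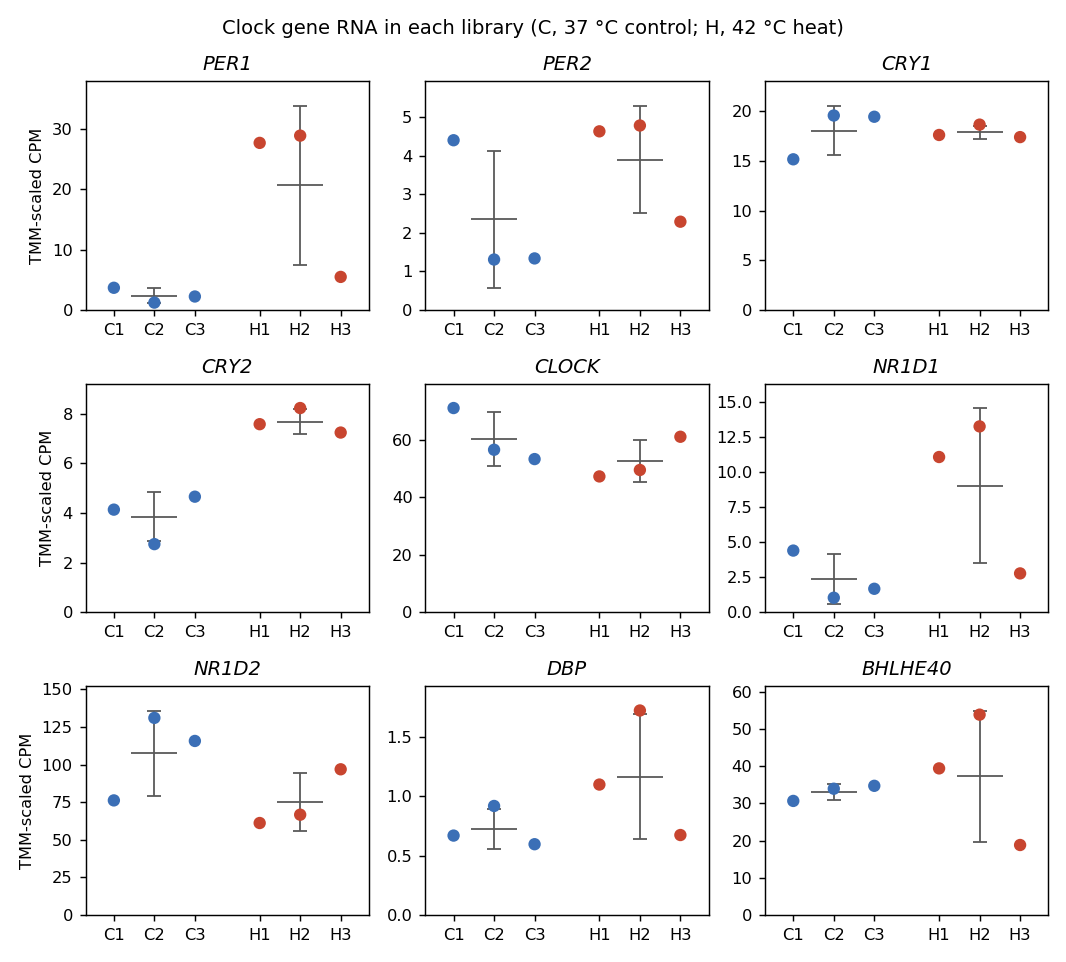
TMM-scaled CPM (y axis, linear from 0, a separate scale for each gene) of the 9 measured clock genes in control libraries C1 to C3 and heat libraries H1 to H3, with 1 point per library and the group mean ± SD (n = 3) in grey. PER1 and CRY2 are the genes whose heat libraries all lie above all controls, and for PER1, PER2 and NR1D1 the heat library H3 lies well below H1 and H2.

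The period genes encode the repressors whose build-up and decay set the pace of the loop, and PER1 is also an early responder to signals that shift the clock. PER1 (ENSSSCG00000017983, chromosome 12, 53361863 to 53376723 on Sscrofa11.1) stood at 3.67, 1.22 and 2.23 CPM in control 1, 2 and 3 and at 27.6, 28.8 and 5.47 CPM in heat 1, 2 and 3. Every heat library lay above every control, but heat 3 was nearer to control 1 than to the other heat libraries. The counts behind these values were 55, 28 and 45 reads in the controls and 554, 620 and 179 reads in heat. PER1 rose from 2.38 ± 1.23 to 20.6 ± 13.2 CPM (SD, n = 3), a ratio of means of 8.69 and 3.13 ± 0.70 as a log2 fold change (SE, edgeR adjusted p = 0.0393).

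PER1 lost its call when any library of the near-identical pairs was left out. Without control 2, control 3, heat 1 or heat 2 it was not past the threshold (log2 fold changes of 2.77, 3.05, 2.87 and 2.83, edgeR adjusted p between 0.146 and 0.164), in fits that called between 0 and 7 genes in all. Without control 1 the value was 3.56 (edgeR adjusted p = 0.0262) and without heat 3 it was 3.57 (edgeR adjusted p = 0.00962). limma-voom gave 2.93 with an adjusted p of 0.0518, DESeq2 gave 3.09 with an adjusted p of 1.57e-04, and over 15 alternative fits that kept the gene the value ran from 2.63 to 4.03 and was called in 9.

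PER2 (ENSSSCG00000016338, chromosome 15, 137793419 to 137837854), which encodes the period protein that stabilises the inhibitory complex with CRY, varied among the controls. Its levels were 4.41, 1.31 and 1.34 CPM in control 1, 2 and 3 and 4.64, 4.79 and 2.29 CPM in heat 1, 2 and 3. Control 1 lay close to heat 1 and 2 and above heat 3, so the groups overlapped. The group means were 2.35 ± 1.78 and 3.91 ± 1.40 CPM, and the log2 fold change of 0.74 ± 0.59 did not pass (edgeR adjusted p = 0.395). When control 1 was left out it was 1.53 and was called (edgeR adjusted p = 0.0483), in a fit that called 31.9% of all tested genes. PER2 was not called without heat 3 (edgeR adjusted p = 0.237), and 2 of 15 alternative fits that kept it called it.

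The cryptochromes bind the period proteins and are the stronger repressors of CLOCK and BMAL1. CRY1 (ENSSSCG00000000164, chromosome 5, 13275265 to 13429566) was the steadiest of the 9 genes, at 15.2, 19.6 and 19.4 CPM in control 1, 2 and 3 and at 17.6, 18.6 and 17.4 CPM in heat 1, 2 and 3. Its 6 log2 CPM values spanned 0.37, against 4.46 for PER1. The log2 fold change was -0.01 ± 0.27 (edgeR adjusted p = 0.976), and its sign flipped to 0.02 with upper-quartile factors and 0.08 with library totals only. RefSeq places the genes MTERF2 and TMEM263 inside the annotated span of CRY1, and how reads in shared sequence were divided is uncertain. MTERF2 stood between 6.69 and 8.61 CPM in controls and between 2.84 and 2.93 CPM in heat (edgeR adjusted p = 0.0413). TMEM263 stood between 116 and 272 CPM. The part of shared reads in the CRY1 values was not tested.

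CRY2 (ENSSSCG00000013270, chromosome 2, 16587101 to 16620380), the other cryptochrome, stood at 4.14, 2.75 and 4.66 CPM in control 1, 2 and 3 and at 7.58, 8.23 and 7.24 CPM in heat 1, 2 and 3. Close together, all heat libraries, heat 3 included, lay above every control. The means were 3.85 ± 0.987 and 7.68 ± 0.502 CPM, and the log2 fold change of 1.00 ± 0.34 did not pass (edgeR adjusted p = 0.0851). DESeq2 called it (0.95, adjusted p = 0.0452) in a test that called 27.5% of all genes with an adjusted p, and without heat 3 edgeR gave 1.02 with an adjusted p of 0.0505.

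CLOCK, the histone acetyltransferase and DNA-binding partner of BMAL1, did not pass the test. CLOCK (ENSSSCG00000008909, chromosome 8, 54793323 to 54910192) stood at 71.0, 56.5 and 53.3 CPM in control 1, 2 and 3 and at 47.3, 49.5 and 61.1 CPM in heat 1, 2 and 3. Heat 3 lay above control 2 and 3, so the groups overlapped. On the log2 scale CLOCK differed by -0.20 ± 0.28 (edgeR adjusted p = 0.645), with a range of -0.33 to -0.05 over 16 alternative fits, none of which called it. RefSeq has CLOCK share 3030 bases of its span with TMEM165, which stood between 107 and 207 CPM, and the part of shared reads in either value was not tested.

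The other activators of the loop were BMAL1, its relative BMAL2, the CLOCK relative NPAS2 and the receptors RORA and RORB. Of 5 matched, 4 were tested and none was called. RORB had at most 6 reads in a library. BMAL1 stood at 9.21, 13.6 and 11.9 CPM in control 1, 2 and 3 and at 3.94, 5.11 and 12.2 CPM in heat 1, 2 and 3, so heat 1 and 2 lay below every control and heat 3 among them. Its log2 fold change of -0.70 ± 0.47 did not pass (edgeR adjusted p = 0.310). Without heat 3 it was -1.37 and was called (edgeR adjusted p = 0.0201), in a fit that called 36.1% of all tested genes. BMAL1 was not called without control 1 (edgeR adjusted p = 0.212), by DESeq2 (adjusted p = 0.240) or by limma-voom (adjusted p = 0.216). Of 16 alternative fits, 2 called it.

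RORA, the receptor that activates BMAL1, stood at 7.81, 22.0 and 23.2 CPM in control 1, 2 and 3 and at 6.48, 6.60 and 7.73 CPM in heat 1, 2 and 3. Control 1 lay just above heat 3, and the groups did not overlap. RORA did not pass, with a log2 fold change of -1.35 ± 0.44 and an edgeR adjusted p of 0.0777. Without control 1 it was -1.72 and was called (edgeR adjusted p = 0.00769), in a fit that called 31.9% of all tested genes. RORA was not called without heat 3 (edgeR adjusted p = 0.0758) or by limma-voom (adjusted p = 0.103). DESeq2 called it (adjusted p = 0.0187), as did 4 of 15 alternative fits in all. BMAL2, the activator with the highest mean, stood at 77.2 ± 2.36 CPM in controls and 60.1 ± 15.6 CPM in heat (edgeR adjusted p = 0.409).

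The REV-ERB receptors repress BMAL1 and are themselves driven by CLOCK and BMAL1. NR1D1 (ENSSSCG00000036933, chromosome 12, 22263549 to 22274131) stood at 4.41, 1.05 and 1.69 CPM in control 1, 2 and 3 and at 11.07, 13.3 and 2.78 CPM in heat 1, 2 and 3. Heat 1 and 2 were the highest, and heat 3 lay below control 1. The means were 2.38 ± 1.78 and 9.03 ± 5.52 CPM, and the log2 fold change of 1.94 ± 0.72 did not pass (edgeR adjusted p = 0.108). NR1D1 was called without control 1 (2.70, edgeR adjusted p = 0.0396) and without heat 3 (2.35, edgeR adjusted p = 0.0357). Those fits called 31.9% and 36.1% of all tested genes. DESeq2 called it on all 6 libraries (1.89, adjusted p = 0.0351). Without control 2, control 3, heat 1 or heat 2 it was not called (edgeR adjusted p between 0.270 and 0.293). Of 15 alternative fits that kept NR1D1, 5 called it.

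NR1D1 shares 3626 bases of its span with THRA, the thyroid hormone receptor gene, and no label says whether counting used the strand. THRA stood at 9.95, 5.89 and 8.13 CPM in control 1, 2 and 3 and at 12.0, 12.2 and 20.8 CPM in heat 1, 2 and 3. Heat 3 was thus the highest library for THRA and the lowest heat library for NR1D1, and the part of shared reads in either value was not tested.

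NR1D2 (ENSSSCG00000027017, chromosome 13, 10756954 to 10791219), the second REV-ERB, had a fold change of the other sign. It stood at 76.2, 131 and 116 CPM in control 1, 2 and 3 and at 61.1, 66.7 and 96.9 CPM in heat 1, 2 and 3. Heat 1 and 2 lay below every control and heat 3 lay above control 1. NR1D2 did not pass, with a log2 fold change of -0.52 ± 0.34 and an edgeR adjusted p of 0.305, and the fit without control 1 gave -0.75 (edgeR adjusted p = 0.0969). The difference between NR1D1 and NR1D2 in response was not tested.

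The summed stromal markers, mostly reads of the collagen genes, ran in much the same order over the libraries as PER2 and NR1D1. Control 2 and 3 were lowest, then heat 3, then control 1, and heat 1 and 2 were highest. DCN and LUM did not keep that order and were highest in control 1. DCN stood at 107 CPM there and 69.3 and 79.1 CPM in heat 1 and 2, and LUM at 349 against 180 and 190 CPM. How many other genes share the order was not counted. PER1 differed from that order in that heat 3 lay above control 1. The part of the stromal markers in these values was not tested.

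DBP, a PAR bZIP factor that is a classical output of the clock and binds D-box elements, had few reads. DBP (ENSSSCG00000003148, chromosome 6, 53986955 to 53993044) had 10, 21 and 12 reads in control 1, 2 and 3 and 22, 37 and 22 reads in heat 1, 2 and 3, or 0.668, 0.917 and 0.595 CPM against 1.10, 1.72 and 0.672 CPM. Heat 3 lay among the controls. The log2 fold change of 0.66 ± 0.51 did not pass (edgeR adjusted p = 0.384). Its relatives TEF and HLF did not pass either. TEF, the one with the higher mean, stood at 6.04 ± 0.959 against 9.37 ± 4.01 CPM (edgeR adjusted p = 0.269), and heat 3 was its highest library at 14.0 CPM.

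BHLHE40 (DEC1), which competes for E-boxes and so dampens CLOCK and BMAL1, stood at 30.6, 33.9 and 34.7 CPM in control 1, 2 and 3 and at 39.4, 53.8 and 18.8 CPM in heat 1, 2 and 3. BHLHE40 (ENSSSCG00000036136, chromosome 13, 61526121 to 61533686) was thus above the controls in heat 1 and 2 and below them in heat 3. It shares 2718 bases of its span with a long noncoding RNA gene in RefSeq. Its log2 fold change was 0.17 ± 0.40 (edgeR adjusted p = 0.779), and it turned to -0.16 without heat 2. Its paralog BHLHE41 (DEC2), named after its values were seen, stood at 10.3, 10.7 and 10.4 CPM in the controls and at 25.7, 28.9 and 11.6 CPM in heat 1, 2 and 3. Heat libraries lay above every control, heat 3 only slightly, and the log2 fold change of 1.08 ± 0.38 did not pass (edgeR adjusted p = 0.0949). Without heat 3 it was called (1.37, edgeR adjusted p = 0.00995), in a fit that called 36.1% of all tested genes. It was not called without control 1 (edgeR adjusted p = 0.105), by DESeq2 (adjusted p = 0.0660) or by limma-voom (adjusted p = 0.123). Of 16 alternative fits, 2 called BHLHE41.

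The further repressors tested were BHLHE41, CIART, NFIL3 and TIMELESS, and none of the 4 was called. NFIL3, which opposes DBP at D-boxes, stood at 19.5, 28.0 and 28.9 CPM in control 1, 2 and 3 and at 18.8, 19.8 and 47.9 CPM in heat 1, 2 and 3 (log2 fold change 0.18 ± 0.43, edgeR adjusted p = 0.789). Heat 3 was its highest library, and without it the value turned to -0.42 (edgeR adjusted p = 0.236). Without control 1 and heat 3 together NFIL3 was called lower, at -0.58, in a fit that called 79.6% of all tested genes.

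**Figure D2:**
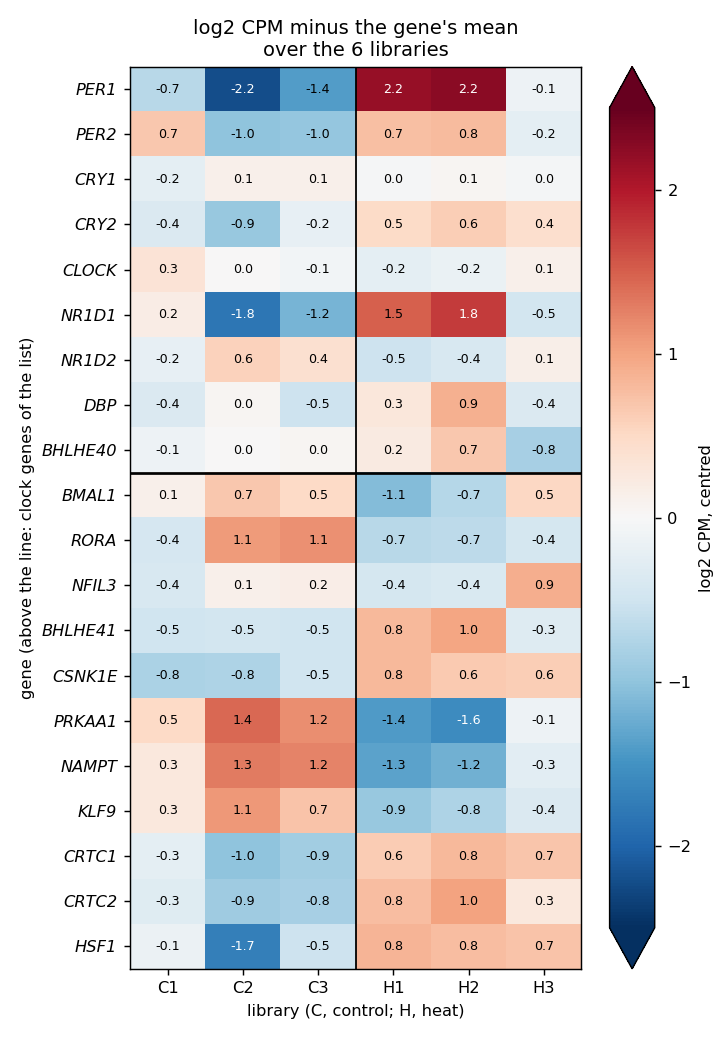
Colour and printed numbers give log2 CPM minus the gene's own mean over the 6 libraries, for the 9 clock genes (above the line) and 11 other clock pathway genes, in control libraries C1 to C3 and heat libraries H1 to H3. H1 and H2 differ most for DBP and BHLHE40 among the clock genes. H3 stands apart from H1 and H2 most for PER1, PER2, NR1D1, BHLHE40, BMAL1, NFIL3, BHLHE41, PRKAA1 and NAMPT. It lies close to them for CRY1, CRY2, CSNK1E, CRTC1 and HSF1.

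The other genes of the clock pathway, 37 by symbol in 6 role lists, gave 34 tested genes. Of these 3 rose, 3 fell and 28 did not pass, with a median log2 fold change of 0.16, so the share called was again to be read against 11% of all genes. Kinases and ubiquitin ligases that act on the PER and CRY proteins gave 2 of the 6 calls among 7 tested. CSNK1E (casein kinase 1 epsilon, which marks period proteins for degradation) stood at 15.5, 15.8 and 18.9 CPM in control 1, 2 and 3 and at 47.4, 42.3 and 41.2 CPM in heat 1, 2 and 3. CSNK1E rose by 1.38 ± 0.27 on the log2 scale (edgeR adjusted p = 0.0325). Here heat 3 lay with the other heat libraries.

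PRKAA1, the catalytic subunit of the energy sensor AMPK, which marks CRY1 for degradation, stood at 57.0, 108 and 89.8 CPM in control 1, 2 and 3 and at 15.1, 13.5 and 36.8 CPM in heat 1, 2 and 3. PRKAA1 fell by 1.96 ± 0.48 on the log2 scale (edgeR adjusted p = 0.0442). The groups did not overlap for CSNK1E or for PRKAA1.

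Among 6 tested clock-controlled outputs, 2 fell and none rose, where 4.32% of all tested genes were called lower. NAMPT, the rate-limiting enzyme of NAD salvage, stood at 53.1, 108 and 105 CPM in control 1, 2 and 3 and at 17.6, 19.2 and 36.9 CPM in heat 1, 2 and 3. NAMPT fell by 1.85 ± 0.44 on the log2 scale (edgeR adjusted p = 0.0416). KLF9, a glucocorticoid-responsive zinc finger factor, fell from 23.0 ± 6.47 to 8.65 ± 1.86 CPM (edgeR adjusted p = 0.0420). For both genes every heat library lay below every control.

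Genes of the inputs that can reset the clock gave 2 calls among 11 tested, both higher, where 6.71% of all tested genes were called higher. CRTC1 and CRTC2, coactivators of CREB that carry cyclic AMP signals to PER1, rose from 2.17 ± 0.667 to 5.81 ± 0.382 CPM and from 4.52 ± 1.06 to 11.7 ± 2.96 CPM (edgeR adjusted p = 0.0480 and 0.0461). CREB1 itself stood at 36.9 ± 9.54 against 41.7 ± 18.5 CPM (edgeR adjusted p = 0.768). HSF1 stood at 5.74, 1.88 and 4.41 CPM in control 1, 2 and 3 and at 11.5, 10.9 and 10.5 CPM in heat 1, 2 and 3. Heat lay above every control, and HSF1 did not pass (edgeR adjusted p = 0.0649). It was called in 7 of 16 alternative fits, among them DESeq2 (adjusted p = 0.0176) and limma-voom (adjusted p = 0.0474). Without heat 3 it was not called (edgeR adjusted p = 0.0614). SIK1, a kinase that restrains CRTC coactivators and was named after its values were seen, stood at 31.6 CPM in control 1, 3.19 and 3.87 CPM in control 2 and 3 and 79.2, 86.2 and 37.4 CPM in heat 1, 2 and 3. Its log2 fold change of 2.40 did not pass (edgeR adjusted p = 0.109), whereas without control 1 it was 4.24 and was called (edgeR adjusted p = 0.00679). Of all tested genes, 31.9% were called in that fit without control 1. DESeq2 and limma-voom called SIK1 on all 6 libraries (adjusted p = 0.0207 and 0.0435). In all, 5 of its 16 alternative fits gave a call. SIK1 stayed uncalled once heat 3 was removed (edgeR adjusted p = 0.0978). Removing control 2, control 3, heat 1 or heat 2 in turn gave SIK1 edgeR adjusted p-values between 0.245 and 0.257.

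All 6 called genes of these lists were also called without control 1 and without heat 3. Those fits called 31.9% and 36.1% of all tested genes, against 11% in the reported fit. Of the 6, 0 were called in any of the 4 fits without control 2, control 3, heat 1 or heat 2, in which edgeR called 0, 0, 7 and 6 of all genes. Their adjusted p-values in those 4 fits lay between 0.143 and 0.204.

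**Figure D3:**
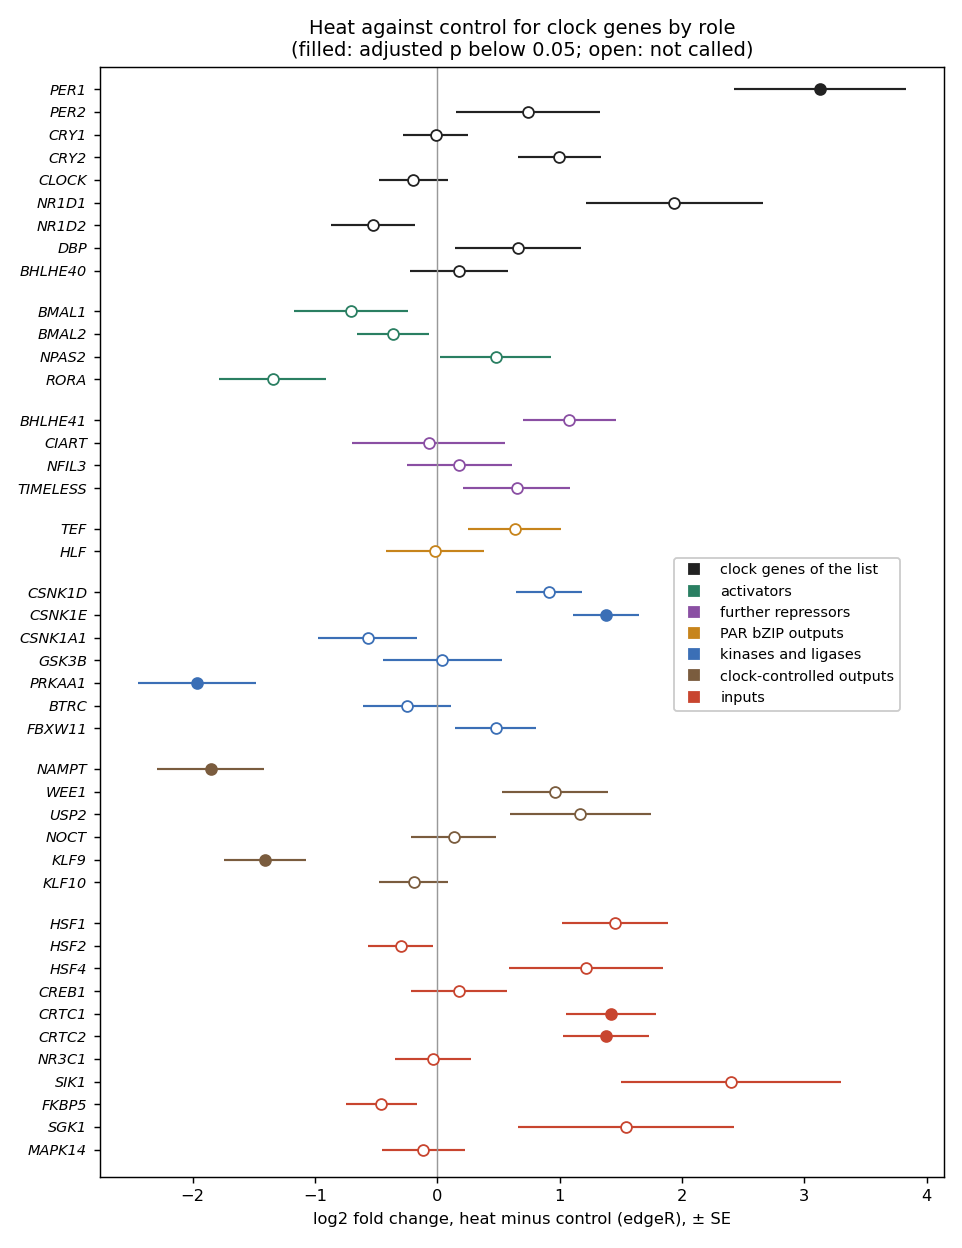
Log2 fold change, heat minus control, ± SE (edgeR, 3 libraries a group) for the 9 clock genes and 34 other tested clock pathway genes, coloured by role; filled circles have an adjusted p below 0.05. PER1 is the filled point among the clock genes, and CSNK1E, PRKAA1, NAMPT, KLF9, CRTC1 and CRTC2 are the filled points among the rest.

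Ratios of reads between 2 genes in 1 library do not depend on the scaling of the library, but their size also carries transcript length, so only their differences between libraries are read here. These pairs were chosen after the values were seen and have no test. Of 10 pairs computed, the groups were separate in 4 and overlapped in 6. No such share was computed over other pairs of genes. Among all tested genes taken singly, heat lay above every control for 20.9% and below every control for 16.8%. In control 1, 2 and 3 the ratio of PER1 to PER2 reads was 0.833, 0.933 and 1.67, and in heat 1, 2 and 3 it was 5.96, 6.02 and 2.39. In control 1, 2 and 3 the ratio of CRY1 to CRY2 reads was 3.66, 7.11 and 4.17, and in heat 1, 2 and 3 it was 2.32, 2.27 and 2.40. In both families the groups did not overlap, with relatively more PER1 and relatively more CRY2 in heat.

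In control 1, 2 and 3 the ratio of BHLHE40 to BHLHE41 reads was 2.98, 3.18 and 3.35, and in heat 1, 2 and 3 it was 1.53, 1.86 and 1.61. Although each of these genes differed between heat 3 and the other heat libraries, their ratio in heat 3 lay between those of heat 1 and 2. In control 1, 2 and 3 the ratio of NR1D1 to BMAL1, a repressor to its target, was 0.478, 0.0769 and 0.141, and in heat 1, 2 and 3 it was 2.81, 2.59 and 0.227. Here heat 3 lay among the controls, so the groups overlapped. The ratio of NR1D1 to NR1D2 ran from 0.00799 to 0.0578 in controls and from 0.0287 to 0.199 in heat, and overlapped as well. So did the ratios of PER2 to BMAL1, DBP to NFIL3, CLOCK to NPAS2 and BMAL1 to CLOCK, while the ratio of PER1 to BMAL1 was at most 0.399 in controls and at least 0.448 in heat.

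**Figure D4:**
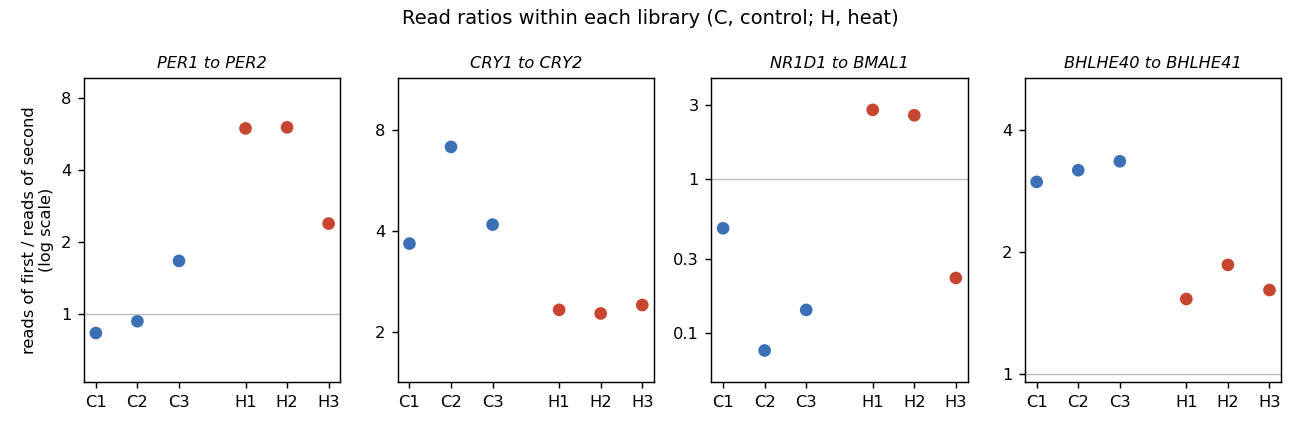
Reads of the first gene divided by reads of the second (y axis, log scale) within each control (C1 to C3) and heat (H1 to H3) library. The ratios of PER1 to PER2, CRY1 to CRY2 and BHLHE40 to BHLHE41 separate the groups, and for NR1D1 to BMAL1 the library H3, at 0.227, lies among the controls.

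PER1 had the lowest p-value of the clock genes, and its profile was compared with those of 9749 other tested genes that carry a symbol and a mean log2 CPM of at least 1. The 5 with the highest Pearson correlation over the 6 libraries were ENGASE, CEBPB, AOC2, SEMA6C and TAPBP, with r between 0.997 and 0.999. The points share their libraries and fall in pairs, so r is a description. AOC2 and TAPBP rose (log2 fold changes of 3.54 and 2.08, edgeR adjusted p = 0.0405 and 0.0499), while ENGASE, CEBPB and SEMA6C had edgeR adjusted p-values between 0.0501 and 0.0704. In all 5, as for PER1, heat 3 lay between control 1 and the other heat libraries.

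The number of clock genes called changed with the libraries kept. Without control 1 and heat 3 together, PER1, PER2, CRY2, NR1D1 and BHLHE40 were called higher and NR1D2 lower, 6 of 9 genes, in a fit that called 79.6% of all tested genes from the 2 near-identical pairs. With each near-identical pair summed into 1 library, 0 of the 9 were called and 2 of all genes, or 0.0129%, were (edgeR), and PER1 stood at a log2 fold change of 2.63 with an adjusted p of 0.254. At an unadjusted p under 0.05 and all 6 libraries kept apart, the clock genes numbered 3.

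**Figure D5:**
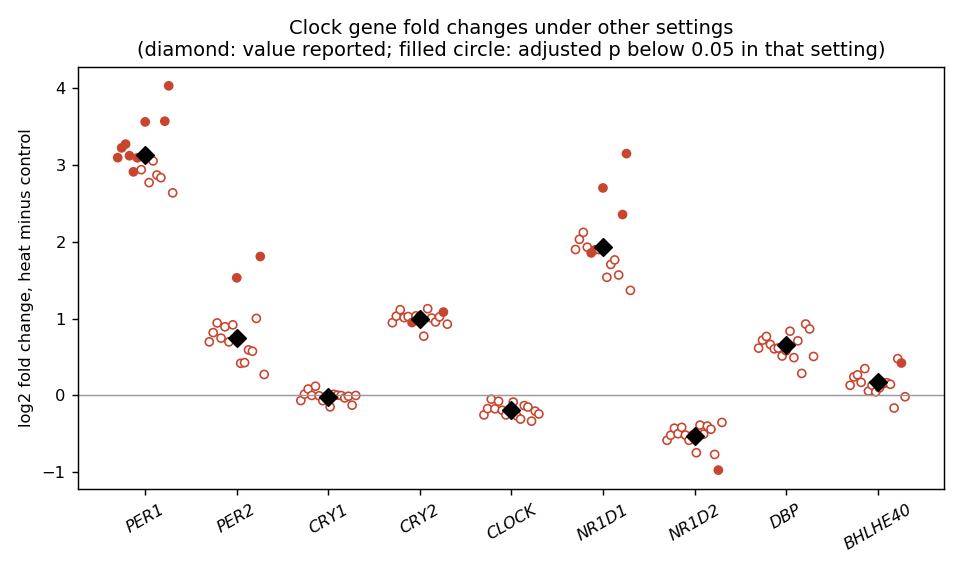
Log2 fold change, heat minus control, of each clock gene (y axis) in the reported fit (diamond) and in up to 16 alternative fits (circles, filled where the adjusted p was below 0.05). PER1 lies between 2.63 and 4.03 and CRY2 between 0.77 and 1.13 in all fits that kept them, whereas CRY1 and BHLHE40 have values on both sides of 0.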

How the data were processed

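The authors deposited raw counts of reads for each Ensembl gene and library. Per the submitters' processing notes, FastQC 0.11.4, Trim Galore and STAR were used with Sscrofa11.1; the sources used here do not give the counting tool or annotation release. The normalized table was not used. Members and lists were chosen with earlier results of these data known. Rows were matched by exact symbol in the reference table (15623 identifiers carry one), and coordinates came from RefSeq genes on Sscrofa11.1.

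Heat was compared with control by edgeR 4.0.16 in R 4.3.3: filterByExpr with a minimum count of 10, TMM factors, robust dispersions and the quasi-likelihood F test, two-sided, on all 6 libraries with Benjamini-Hochberg adjustment over 14242 genes. The SE was obtained as the size of the log2 fold change over the root of its F statistic. Log2 CPM used a prior count of 2. The common biological coefficient of variation was 43.6%. Alternatives were other scalings, other filters, a replicate block, DESeq2 1.42.0, limma-voom (limma 3.58.1), an adjusted p below 0.1, leaving out libraries, and summing near-identical libraries.

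By rule, all 10 clock genes are named, as are called genes of the other lists (or the highest of a list with no call), BMAL1, NFIL3, RORA, HSF1 and the 5 genes most like PER1. BHLHE41, SIK1, CREB1, THRA, MTERF2, TMEM263, TMEM165, NPAS2, RORB, CIART, TIMELESS and HLF fall outside it, as do the cell type markers. Some genes of the lists are not reported here and were left out of their counts. No motif was searched, since no promoter sequence was used here. Markers of theca, leukocyte, endothelial and erythrocyte cells were also summed; their ranges over libraries were 0 to 0.306, 1.31 to 63.6, 5.26 to 10.8 and 0 to 0.0496 CPM.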

Additional observations from a re-analysis of the deposited data

How the results depend on the processing

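Calls are given as higher and lower. For clock genes the reported 1 and 0 became 3 and 0 with DESeq2, 2 and 0 at an adjusted p below 0.1, 5 and 1 without control 1 and heat 3 together, and 0 and 0 with limma-voom, with near-identical libraries summed, and with a filter of 10 CPM in 3 libraries, which left PER1 untested. For other clock pathway genes the reported 3 and 3 became 6 and 4 with DESeq2 and at an adjusted p below 0.1, 15 and 14 without control 1 and heat 3, 0 and 0 with libraries summed, 1 and 3 with DESeq2 size factors in edgeR, 4 and 0 with library totals only, 2 and 3 with the filter of 10 CPM, and 5 and 3 with limma-voom. For all genes 956 and 615 became 2118 and 1792 with DESeq2, 2092 and 1469 at an adjusted p below 0.1, 532 and 396 with the filter of 10 CPM, 6285 and 5857 without control 1 and heat 3, 2 and 0 with libraries summed, 1607 and 850 with no filter, 1055 and 732 with limma-voom and 1583 and 416 with library totals only. The cause of these differences was not tested, except that the filter of 10 CPM tests fewer genes.

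With the replicate block 2 clock genes (PER1 and NR1D1) were called higher and 0 lower, 6 and 4 other clock pathway genes, and 2104 and 1300 of all genes. No label says that equal replicate numbers belong together, and they were not taken as a pairing. Deviations from the group means correlated at 0.299, -0.23 and 0.223 for numbers 1, 2 and 3. Control 1 correlated best with heat 1, and control 2 and control 3 correlated best with heat 3 (0.287 and 0.223). Each group holds 1 library apart from a near-identical pair, so these values cannot decide whether the numbers are a pairing.

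Leaving out 1 library at a time gave 0 to 3 clock genes higher and 0 lower, 0 to 9 other clock pathway genes higher and 0 to 6 lower, and 0 to 3021 of all genes higher and 0 to 2713 lower. The log2 fold change of CRY1 (reported -0.01) was 0.016 with upper-quartile factors, 0.083 with library totals only, 0.12 with the filter of 10 CPM and between -0.15 and 0.014 with 1 library left out. That of BHLHE40 (reported 0.17) was -0.017 with libraries summed and between -0.16 and 0.48 with 1 library left out. The other 7 clock genes kept their sign in every alternative that gave a value. DBP rests on the fewest reads of the 9 genes, 124 over 6 libraries.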
